A study of Mus musculus with 4 samples.

Results

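The 234 genes described here are the expressed long noncoding RNAs (lncRNAs) of sorted Dll1-positive mouse mammary tumor cells. They are the rows of the count table with the biotype lincRNA, lncRNA or antisense that lie on no sex chromosome. Each reached at least 2 CPM (the count divided by the column total, times 1e6) in both unirradiated libraries. Of 54532 rows, 8385 had one of these biotypes, 7695 of those were not on X or Y, and 3527 of those had a count in any library. The 234 members comprised 126 lincRNAs and 108 antisense genes, and 0 carried the biotype lncRNA. Because the unirradiated level chose the members, their unirradiated levels and the balance of their differences from it are given as descriptions.

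The libraries compared mammary tumors left unirradiated (n = 2) with tumors given targeted radiation on day 30 (n = 2), to learn how radiation alters the RNA of the tumor cells. All tumors were of the C57BL/6 strain and grew from injected MMTV-PyMT cells, in which the mammary tumor virus promoter drives the polyoma middle T oncogene, and which carry an mCherry reporter of the Notch ligand Dll1. Digested tumors were sorted with CD45 (blood cell), CD31 (endothelial) and TER119 (red cell) antibodies and then for mCherry, so both groups hold reporter-positive cells. The labels give no age, no dose and no count of animals, and it is not stated whether each library is a different animal. The p-values therefore cover the spread between libraries, which may be technical. The title codes also separate the groups exactly, and any handling that went with them cannot be told apart from radiation.

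Long noncoding RNAs are transcripts that are not known to be translated. Some shape nuclear bodies or the chromatin of their own locus, others are spliced mainly to release small nucleolar RNAs or microRNAs from their introns and exons, and many start beside a coding gene or overlap it. Imprinted members such as H19 and Meg3 are transcribed from 1 parental copy, are abundant in the embryo and are low in most adult epithelia.

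The 4 libraries held from 16811888 to 20817997 counts. The unirradiated libraries differed by a biological coefficient of variation of 5.93% across genes and the irradiated libraries by 39.1%. All 10 epithelial markers were detected in every library, with summed levels of 10600 and 10297 CPM unirradiated and 11179 and 8935.7 CPM irradiated. Markers of other cells were highest in irradiated 2. There, 10 fibroblast markers summed to 5981 CPM against 632 to 836 CPM in the other libraries, 10 endothelial markers to 873 against 37.6 to 66.5 CPM, 10 macrophage markers other than Cd14 to 734 against 20.9 to 91.3 CPM, and 11 lymphocyte markers to 157 against 6.31 to 27.7 CPM. The 6 red cell markers summed to 35.1 CPM in irradiated 2 and to 2.02 to 5.85 CPM in the others, of which 3, 1 and 2 were at 0 in unirradiated 1, unirradiated 2 and irradiated 1. Irradiated 1 held the next highest sum of each of these lists, with 91.3 CPM of those macrophage markers against 23.7 and 20.9 CPM unirradiated, and 27.7 CPM of lymphocyte markers against 8.13 and 6.31 CPM. Cd14 itself, at 335, 304, 276 and 325 CPM, held most of the macrophage sum in all but irradiated 2. Both irradiated libraries lay above the unirradiated pair for 7 of the 10 fibroblast, 8 of the 10 endothelial, 10 of the 11 macrophage and 8 of the 11 lymphocyte markers. Of the 10 epithelial markers, 2 lay above in both and 4 below in both. The shares of all tested genes were 20.3% above and 20.0% below. The part of these cells in the values below was not tested, and in bulk RNA fewer cells of a type cannot be told apart from less RNA per cell.

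The expressed lncRNAs were a small and uneven share of the RNA. They took 0.616% and 0.653% of the counts in the unirradiated libraries, 0.820% in irradiated 1 and 0.575% in irradiated 2. The 3 most abundant members, Neat1, Malat1 and Gm26917, held 63.3% of the members' unirradiated CPM. In contrast, 133 members averaged under 5 CPM and 5 averaged 100 CPM or more. The smallest count of any member was 42 and 34 in the unirradiated libraries, 6 in irradiated 1 and 11 in irradiated 2, so single low members are imprecise there. The median level was 4.43 CPM, or 2.65 RPKM (CPM divided by the deposited gene length in kb), against 33.1 CPM and 7.12 RPKM for the 11326 protein-coding genes under the same rule. The median gene length was 2298 bases for the members and 4543.5 bases for those coding genes.

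Just inside the threshold lay 2810455O05Rik at 2.02 and 3.03 CPM unirradiated and 2.41 and 1.75 CPM irradiated, Gm43254 at 2.88 and 2.02 and at 2.86 and 2.12 CPM, and Gm20457 at 2.02 and 2.38 and at 1.81 and 1.38 CPM, all without library scaling. Just outside lay Gm10791 at 1.97 and 2.68 CPM unirradiated and 2.51 and 1.53 CPM irradiated, Gm47950 at 1.97 and 2.38 and at 2.76 and 2.12 CPM, and Gm41077 at 1.97 and 2.97 and at 2.91 and 1.90 CPM. All further CPM values are scaled by the trimmed mean of M values (TMM), and library values are given in the order unirradiated 1, unirradiated 2, irradiated 1, irradiated 2.

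Ranked per length, Gm26917 led, with 342 and 359.6 RPKM unirradiated and 566 and 371 RPKM irradiated. Malat1, a nuclear speckle RNA, followed at 169 and 169 RPKM unirradiated and 207 and 148 RPKM irradiated. Next came Gm10076 at 96.4 and 78.9 RPKM unirradiated and 41.5 and 94.1 RPKM irradiated, and Neat1, the scaffold RNA of paraspeckles, at 76.1 and 83.5 and at 113 and 65.2 RPKM. In the unirradiated pair Gm26917 and Malat1 stood apart from all others, whereas the values of Gm10076 and Neat1 overlapped. Gm26917 lies on chromosome 17 from 39843013 to 39846341, 12 bases from a row of ribosomal RNA, a repeated sequence, and its level is uncertain. The others of the highest 15 were Gm26532, Epb41l4aos, AW112010, 2900097C17Rik, Plet1os, Gm42047, Snhg12, C530043A13Rik, Gm16136, Pinc and 1700058P15Rik, with unirradiated means from 49.7 down to 20.9 RPKM. Kcnq1ot1, the longest with 93092 bases, ranked 234 per length.

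**Figure D1:**
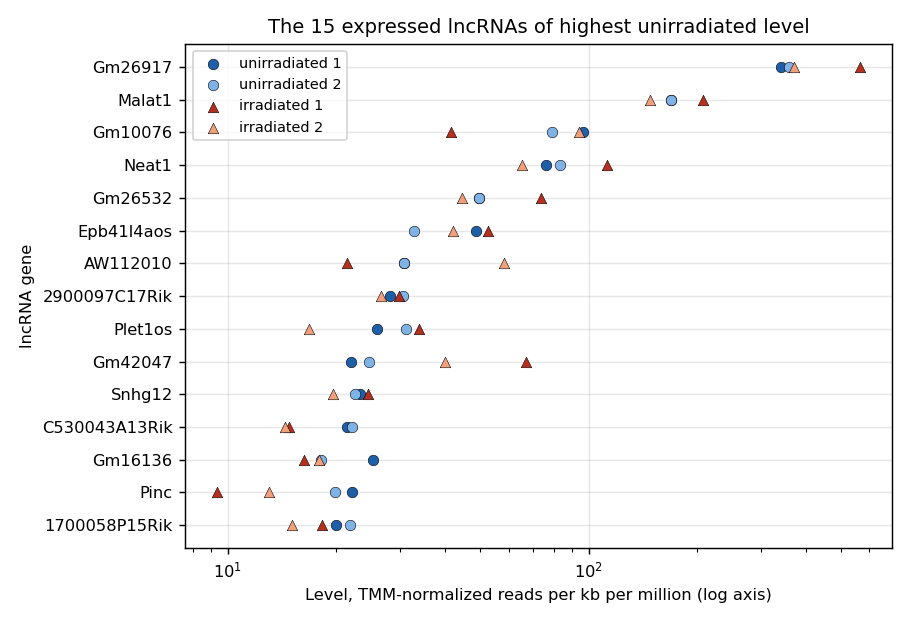
Levels of the 15 members with the highest unirradiated mean, in TMM-normalized reads per kb per 1e6 (RPKM) on a log axis, with 1 point per library. Gm26917 is at the top between 342 and 566, and Gm10076, AW112010 and Gm42047 show wide gaps between libraries.

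Many members lie in or beside other genes, and the kit kept no strand. In the GENCODE M21 annotation (GRCm38), 122 of the 234 shared exon bases with another gene and 36 shared 20% or more of theirs. Of the 108 antisense members, 82 shared exon bases, and reads in those shared bases cannot be told apart from those of the overlapped gene unless the counting left shared bases out, which no source here states. A total of 52 members, 18 of them lincRNAs, started head to head with a coding gene, from 500 bases inside it to 1000 bases upstream. Among RefSeq promoters of 300 bases (250 before the start and 50 after, GRCm38.p6), 119 members matched by symbol. Their median ratio of observed to expected CpG was 0.537, against 0.780 for 8909 protein-coding genes under the same rule and 0.392 for all 26742 promoters. The ratio was 0.6 or more in 58 of the 119 (48.7%), in 75.2% of the coding genes and in 36.8% of all promoters.

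No member passed the radiation comparison. With edgeR's quasi-likelihood test and Benjamini-Hochberg adjustment over 15993 genes, 0 of the 234 members passed 0.05 in either direction, as did 0 of all tested genes (0% higher, 0% lower). The smallest adjusted p was 0.489, among the members and among all genes. At an unadjusted p under 0.05, 4 members (1.71%) were higher and 10 (4.27%) lower, beside 1090 (6.82%) and 390 (2.44%) of all tested genes, and 4.60% and 2.93% of the coding genes under the same rule. DESeq2, the alternative test, passed 2 members higher (0.855%) and 4 lower (1.71%). It passed 2.96% and 0.380% of the 14752 genes with an adjusted value, and 1.43% and 0.424% of those coding genes. When irradiated 1 was left out edgeR passed 7 members higher and 34 lower, beside 15.9% and 7.95% of all 17041 genes tested. When irradiated 2 was left out it passed 34 and 34, beside 11.9% and 13.9% of 16954 genes. Those fits assume for the remaining irradiated library the spread of the unirradiated ones.

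The 2 irradiated libraries differed in where the members lay. Against the unirradiated mean, the members' differences had a median of 0.03 (log2) in irradiated 1 and -0.27 in irradiated 2, and the fitted median log2 fold change was -0.13, beside 0.00 over all tested genes. Irradiated 1 lay above both unirradiated libraries in 102 members (43.6%) and below both in 101 (43.2%). For the coding genes under the same rule these shares were 38.7% and 45.9%. Irradiated 2 lay above both in 51 (21.8%) and below both in 157 (67.1%), beside 38.6% and 42.1% of those coding genes. A total of 59 members (25.2%) were above in irradiated 1 and below in irradiated 2, and 15 (6.41%) showed the reverse. Those coding genes gave 14.6% and 15.3%. Irradiated 1 exceeded irradiated 2 in 165 of 234 (70.5%), and in 45.5% of all tested genes.

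**Figure D2:**
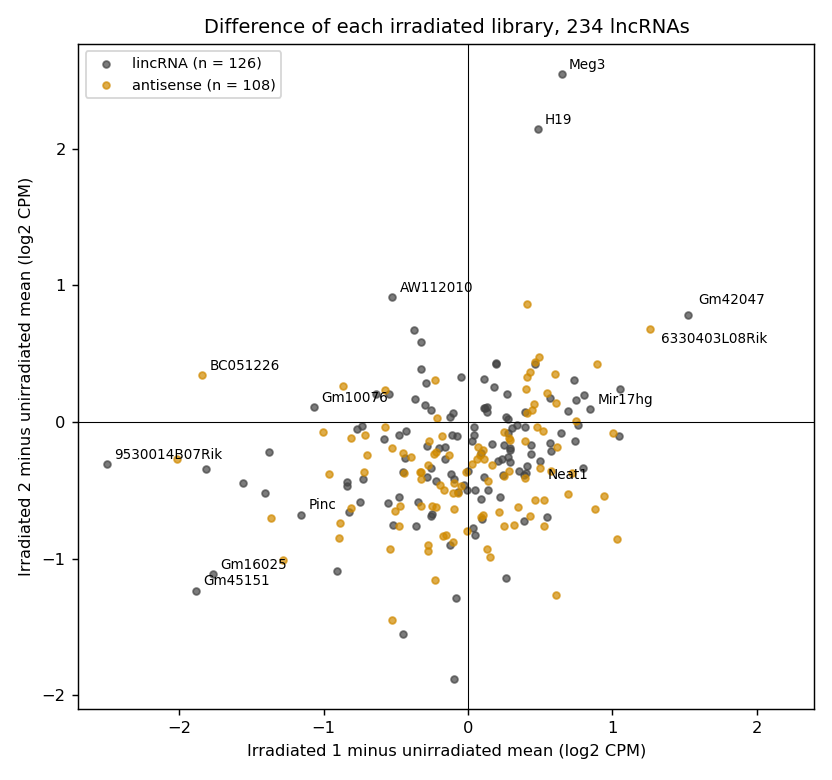
Each of the 234 members by its log2 CPM difference from the unirradiated mean in irradiated 1 (horizontal) and irradiated 2 (vertical), by biotype. Most points lie below the horizontal line, while Meg3 and H19 stand high on the vertical axis.

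Protein-coding genes of the same low level were balanced differently in irradiated 2. The comparison was made under 5 CPM, a level set after the values were seen, where the 133 members had a median of 3.37 CPM and the 1009 coding genes under the same rule 3.44 CPM. The members' median log2 difference there was 0.0029 in irradiated 1 and -0.32 in irradiated 2, and that of the coding genes 0.05 and 0.19. Irradiated 2 lay below both unirradiated libraries in 86 of these members (64.7%) and in 292 of the coding genes (28.9%). It lay above both in 30 (22.6%) and in 548 (54.3%). The median absolute log2 difference between the irradiated libraries was 0.53 for the members and 0.60 for the coding genes, and between the unirradiated ones 0.21 and 0.20. No test was made of the difference between these sets, which hold different genes, and the part of the other cell types in it was not tested.

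**Figure D3:**
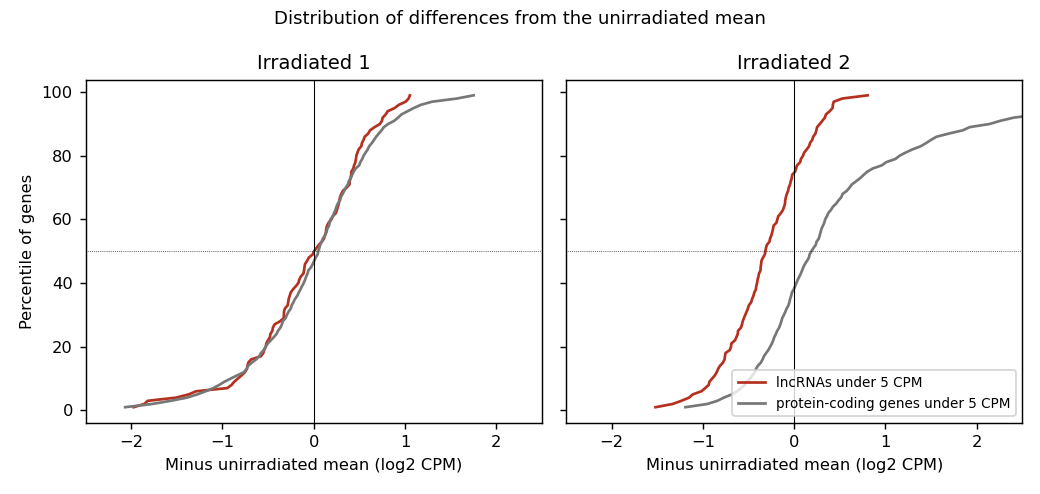
Percentiles of the log2 CPM difference from the unirradiated mean for the 133 members and the 1009 protein-coding genes that average under 5 CPM unirradiated, in each irradiated library. In irradiated 1 the 25th percentiles were -0.45 and -0.39 and the 75th 0.41 and 0.44, and in irradiated 2 the curves part, with medians of -0.32 and 0.19.

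The lower values in irradiated 2 were seen in both biotypes. On the log2 scale the lincRNAs had a median there of -0.20 and the antisense members of -0.37. Members under 5 CPM had -0.32 there and the 101 others -0.24, and members that shared exon bases had -0.34 and the 112 without shared bases -0.22. When members were chosen by a mean of 2 CPM over all 4 libraries, which weights the libraries alike, the 255 genes had -0.24 in irradiated 2 and 0.10 in irradiated 1. The irradiated pair was wholly above the unirradiated pair in 35 members (14.96%; 20.3% of all tested genes) and wholly below in 74 (31.6%; 20.0% of all). These shares were 18.0% and 21.9% for the coding genes under the same rule. Without irradiated 1 the counts were 49 above and 159 below, beside 38.4% and 41.3% of all tested genes. Without irradiated 2 they were 102 and 101, beside 39.8% and 44.1%.

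Among members above in both irradiated libraries, Gm42047 had the smallest p. This lincRNA of no stated function lies on chromosome 8 from 121833247 to 121841178, between Klhdc4 and Slc7a5, and shares no exon bases with them. It stood at 124, 139, 378 and 226 CPM. Both irradiated libraries were well above the unirradiated pair. The log2 fold change was 1.20 ± 0.27 (SE), with an adjusted p of 0.489 in edgeR and 0.00116 in DESeq2. It was 0.77 without irradiated 1 and 1.51 without irradiated 2. Its nearest coding gene Klhdc4, 3678 bases away, stood at 32.2, 30.1, 35.6 and 32.8 CPM, and the amino acid transporter gene Slc7a5 at 120, 116, 145 and 125 CPM.

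The imprinted RNAs Meg3 and H19 were high mainly in irradiated 2. Meg3, of chromosome 12 from 109541001 to 109571726, stood at 5.92, 7.49, 10.5 and 39.3 CPM. Its log2 fold change was 1.89 ± 0.64 (SE), with an adjusted p of 0.503 in edgeR and 0.0406 in DESeq2. H19, of chromosome 7 from 142575529 to 142578143, stood at 4.33, 4.13, 5.95 and 19.03 CPM. Its log2 fold change was 1.56 ± 0.58 (SE), with an adjusted p of 0.525 in edgeR and 0.169 in DESeq2. Without irradiated 2 the log2 fold changes were 0.64 for Meg3 and 0.48 for H19. For both, irradiated 1 lay just above the unirradiated libraries and irradiated 2 stood far above, as did the summed fibroblast and endothelial markers; the part of those cells was not tested. Rian, of the Meg3 locus and of another biotype, stood at 2.502, 2.42, 2.42 and 16.7 CPM, and its coding neighbor Dlk1 at 0.192, 0.236, 0.504 and 2.56 CPM. Igf2, the growth factor gene of the H19 locus, was near 0, at 0, 0.118, 0 and 0.160 CPM.

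The Meg3 promoter is shown because Meg3 had the largest fold change above among the members named by p. RefSeq gives Meg3 a further start, whose window has 50.3% GC, a CpG ratio of 0.0588 and none of the motifs searched. The window of the upstream start, chr12:109540746-109541045 (GRCm38.p6, plus strand), has 53.7% GC and a CpG ratio of 0.602. Capitals mark matches to CCAAT, TGACGTCA and TATAAA, searched on both strands, at -100, -57 and -25 from the start, where TATAAA on the minus strand overlaps at -29.
Meg3: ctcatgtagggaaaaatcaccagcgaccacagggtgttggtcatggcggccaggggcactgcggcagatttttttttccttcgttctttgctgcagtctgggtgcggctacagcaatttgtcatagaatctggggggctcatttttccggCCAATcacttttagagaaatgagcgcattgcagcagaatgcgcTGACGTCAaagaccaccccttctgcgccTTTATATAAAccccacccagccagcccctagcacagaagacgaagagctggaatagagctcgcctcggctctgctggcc
Over all promoters, 37.9% held CCAAT, 1.89% TGACGTCA and 14.1% TATAAA, and over the members' promoters 38.7%, 1.68% and 9.24%. The matches are descriptions of letters.

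The other members above had smaller values. The antisense gene 6330403L08Rik shares 14.7% of its exon bases with Pdgfa, a growth factor gene, and stood at 2.94, 2.83, 7.06 and 4.69 CPM, while Pdgfa stood at 27.2, 25.9, 38.2 and 31.5 CPM. Its log2 fold change was 1.03 ± 0.35 (SE), with an adjusted p of 0.503 in edgeR, and strand cannot be told apart. Both irradiated libraries also lay above for Gm15564 (3.99, 4.84, 8.27 and 5.92 CPM), 1700086O06Rik (3.27, 3.83, 7.47 and 4.21), Gm4673 (11.1, 13.6, 16.6 and 15.9) and 1700020I14Rik (51.5, 57.4, 61.6 and 64.9). Their log2 fold changes ran from 0.22 to 0.72. Gm4673 shares 21.2% of its exon bases, chiefly with Lsr on the opposite strand (54.6, 51.4, 52.0 and 46.4 CPM). 1700086O06Rik shares 7.15%, chiefly with Dele1 on the opposite strand (49.2, 46.1, 42.4 and 44.7 CPM). In 1700086O06Rik and Gm15564 irradiated 1 exceeded irradiated 2, as in Gm42047.

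**Figure D4:**
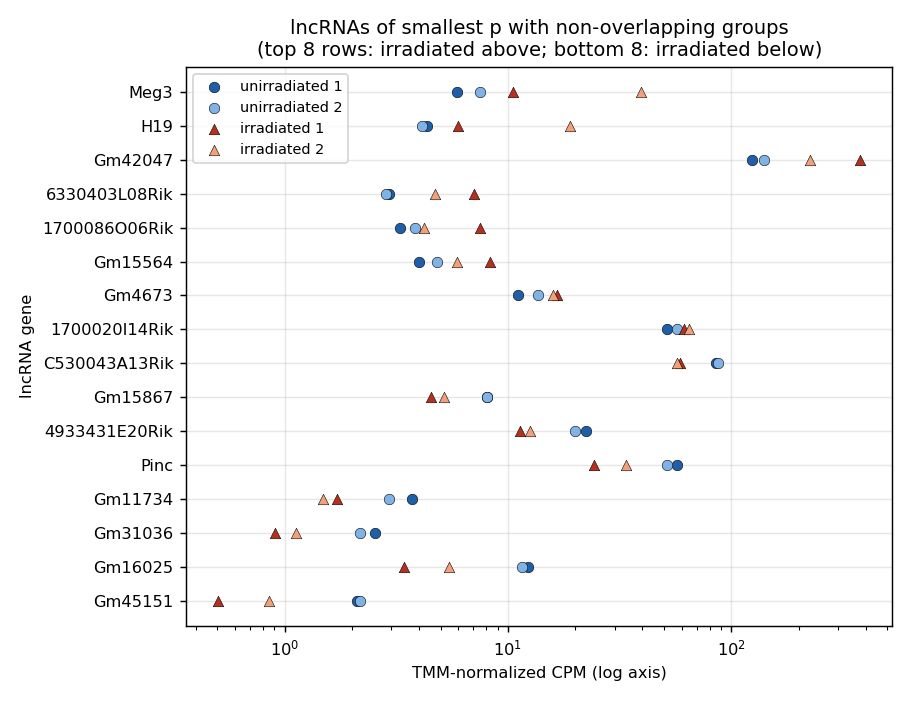
CPM (log axis) in each library for the 16 members of smallest p whose groups do not overlap, 8 above and 8 below, in order of fold change within each. Unirradiated points nearly coincide in most members, while the irradiated points of Meg3 and H19 lie far apart.

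Among members below in both irradiated libraries, a pair of neighbors on chromosome 1 stood out. Pinc, an RNA known to rise in the mammary gland in pregnancy, lies from 73390775 to 73407569 on the minus strand, and C530043A13Rik 114526 bases away on the same strand, from 73522095 to 73529790. Pinc stood at 57.1, 51.4, 24.2 and 33.7 CPM. C530043A13Rik stood at 85.2, 87.5, 58.7 and 57.3 CPM. Both irradiated libraries lay below the unirradiated pair for each gene, and C530043A13Rik differed little between its irradiated libraries. The log2 fold changes were -0.90 ± 0.19 (SE) for Pinc and -0.57 ± 0.097 (SE) for C530043A13Rik. Each had an adjusted p of 0.489 in edgeR, and DESeq2 gave 0.0100 and 0.0123. Both genes passed in edgeR when either irradiated library was left out, with -0.70 and -1.18 for Pinc and -0.61 and -0.57 for C530043A13Rik. The coding genes nearest to Pinc among those tested were far off. Tns1, a focal adhesion gene, lay 502662 bases away and stood at 12.6, 13.9, 15.03 and 60.4 CPM. Igfbp5, an insulin-like growth factor binding protein gene, lay 515891 bases away and stood at 8144, 8541, 7451 and 5981 CPM.

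The Pinc promoter is shown as that of a mammary gland RNA with lower values in both irradiated libraries. The RefSeq window chr1:73407520-73407819 (GRCm38.p6, minus strand) has 44.3% GC and a CpG ratio of 0.278. Capitals mark a match to TTCNNNGAA, the spaced palindrome to which STAT factors are known to bind, at -23 from the start.
Pinc: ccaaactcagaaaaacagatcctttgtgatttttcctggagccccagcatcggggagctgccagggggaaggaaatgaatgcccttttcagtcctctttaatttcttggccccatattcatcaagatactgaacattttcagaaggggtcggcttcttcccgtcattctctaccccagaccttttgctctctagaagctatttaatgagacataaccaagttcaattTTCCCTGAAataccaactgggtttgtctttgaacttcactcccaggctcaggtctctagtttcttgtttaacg
This motif, which reads alike on both strands, was in 8.50% of all promoters and in 8 of the 119 members' promoters (6.72%). It was in 5 of the 38 of members below (13.2%) and 0 of the 12 of members above. The other motifs searched differed too. For members below and above, the shares were 5.26% and 16.7% for TATAAA, 36.8% and 25% for CCAAT, and 36.8% and 58.3% for GGGCGG. They were 7.89% and 16.7% for TGANTCA, and 2.63% and 8.33% for TGACGTCA. No test was made of these shares, and the match in the Pinc window is a description of letters.

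Further members lay below. Gm16025 stood at 12.3, 11.5, 3.43 and 5.44 CPM, with a log2 fold change of -1.43 ± 0.31 (SE) and an adjusted p of 0.489 in edgeR and 0.0183 in DESeq2. Its exons share 18.3% of their bases with the pseudogene Gm7281 on the opposite strand, which had 0 counts in every library. The antisense gene 4933431E20Rik stood at 22.4, 19.9, 11.4 and 12.6 CPM, with -0.82 ± 0.17 (SE) and adjusted p of 0.489 in edgeR and 0.0489 in DESeq2. It shares 16.7% of its exon bases, chiefly with Eps8l3 on the opposite strand, at 0, 0.0590, 0 and 0 CPM. It starts head to head with the glutathione transferase gene Gstm5, at 22.7, 17.9, 14.9 and 18.9 CPM. In Gm16025 and 4933431E20Rik, the irradiated libraries lay well below both unirradiated ones. Gm45151 (2.12, 2.18, 0.504 and 0.853 CPM), Gm31036 (2.55, 2.18, 0.908 and 1.12), Gm11734 (3.71, 2.95, 1.72 and 1.49) and Gm15867 (8.08, 8.02, 4.54 and 5.17) had log2 fold changes from -1.66 to -0.73. Gm15867 shares 35.6% of its exon bases, chiefly with Sertad4 on the opposite strand. Sertad4 stood at 102, 103, 98.2 and 76.2 CPM, also below in both irradiated libraries, and strand cannot be told apart.

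The abundant nuclear RNAs gave no common direction. Of 10 listed, 8 were tested, 5 were members, 1 lay above and 1 below (20.3% and 20.0% of all tested genes), with a median log2 fold change of 0.01 and none passing. Neat1 stood at 1579.8, 1734, 2341 and 1355 CPM, and Malat1, separated from it by 22036 bases, at 1181, 1179, 1445 and 1035 CPM. Both were higher in irradiated 1 and lower in irradiated 2 than in either unirradiated library. Their log2 fold changes were 0.16 ± 0.29 and 0.07 ± 0.21 (SE), and without irradiated 1 they turned to -0.31 and -0.20. Tug1, a regulator of chromatin that shares 11.6% of its exon bases with Morc2a, stood at 91.1, 99.8, 102 and 82.8 CPM, with the same order of the irradiated libraries. 2900097C17Rik, the mouse form of the genome stability RNA NORAD, stood at 139, 149.98, 147 and 131 CPM, and its groups overlapped. It was listed as Norad, a symbol that matched no row, so the counts and median of this list leave it out.

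The imprinted list had 7 tested genes of 10 listed, of which 3 lay above and 1 below (20.3% and 20.0% of all tested genes), none passed, and the median log2 fold change was 0.28. Kcnq1ot1, which silences genes of its cluster in cis, was below at 15.1, 20.996, 13.1 and 13.7 CPM. Airn, the antisense RNA that silences Igf2r, was above at 3.56, 3.95, 5.15 and 3.998 CPM, though irradiated 2 exceeded unirradiated 2 by little.

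Hosts of small nucleolar RNAs, which guide the modification of ribosomal RNA, gave small values. Of 21 listed, 17 were tested, 1 lay above and 5 below (20.3% and 20.0% of all tested genes), none passed, and the median log2 fold change was -0.03. The member above was Snhg6, at 16.6, 16.7, 18.1 and 17.9 CPM. Snhg12 stood at 56.0, 54.3, 58.7 and 47.0 CPM, Snhg20 at 28.3, 27.8, 35.8 and 21.8, Epb41l4aos at 20.98, 14.1, 22.6 and 18.1, and Snhg18 at 3.32, 3.83, 2.82 and 4.69. Their groups overlapped. The better-known hosts Gas5 (342, 318, 329 and 283 CPM), Snhg1 (89.7, 82.5, 82.2 and 74.5) and Snhg17 (102, 103, 90.7 and 68.3) have another biotype in the file and are no members.

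Of the members, 9 held a RefSeq microRNA in an exon on their own strand, and 4 of them had both irradiated libraries above (20.3% of all tested genes did). Mir17hg, host of the miR-17-92 cluster with 6 microRNA genes on chromosome 14, stood at 7.80, 8.49, 14.7 and 8.69 CPM. Irradiated 1 was high and irradiated 2 close to unirradiated 2. Its log2 fold change was 0.52 ± 0.32 (SE), with an adjusted p of 0.696 in edgeR. The let-7d host 6720427I07Rik stood at 3.18, 4.01, 6.31 and 4.10 CPM and was ordered alike, with 0.54 ± 0.37 (SE) and an adjusted p of 0.743. The others above were H19 and Meg3, hosts of miR-675 and miR-770. The host of miR-31, AL805899.1, stood at 5.53, 5.84, 7.57 and 4.53 CPM, and its groups overlapped. The mature sequences carried by these hosts are shown, from RefSeq (GRCm38.p6), with the seed (bases 2 to 8) in capitals and the cluster grouped by shared seed; poly(A) libraries do not measure the mature microRNAs.
mmu-miR-17-5p: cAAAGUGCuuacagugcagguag
mmu-miR-20a-5p: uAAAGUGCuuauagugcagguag
mmu-miR-18a-5p: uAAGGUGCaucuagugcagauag
mmu-miR-19a-3p: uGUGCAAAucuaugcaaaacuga
mmu-miR-19b-3p: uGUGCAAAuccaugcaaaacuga
mmu-miR-92a-3p: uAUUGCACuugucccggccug
mmu-let-7d-5p: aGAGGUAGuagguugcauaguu
mmu-miR-675-5p: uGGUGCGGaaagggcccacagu
mmu-miR-770-5p: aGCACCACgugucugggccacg
mmu-miR-31-5p: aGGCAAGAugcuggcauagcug
In the cluster, miR-17 and miR-20a share a seed, as do miR-19a and miR-19b. The list of microRNA hosts, which also held genes of other biotypes and Mirt1, had 10 tested of 17, with 5 above, 1 below (20.3% and 20.0% of all tested genes), none passing, and a median log2 fold change of 0.46.

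The p53 and DNA damage list gave 7 tested of 10, with 3 above, 0 below (20.3% and 20.0% of all tested genes), none passing, and a median log2 fold change of 0.16. Norad was on this list too and is left out of these values in the same way. Pvt1, the neighbor of Myc, stood at 9.14, 8.43, 9.63 and 9.22 CPM, and Lncpint, a p53-induced RNA, at 2.65, 2.71, 3.08 and 3.62. In both, the irradiated libraries lay above by a small step. Trp53cor1, another p53 target, fell outside the rule and stood at 0.289, 0.767, 1.82 and 0.267 CPM. The immune list had 3 tested of 12, with 2 above, 0 below (20.3% and 20.0% of all tested genes), none passing, and a median of 0.49. Those above were Mirt1 and Mir155hg, which is no member and stood at 0.674, 0.354, 0.807 and 1.33 CPM. AW112010, an interferon-induced RNA, stood at 23.8, 23.8, 16.5 and 44.8 CPM, so irradiated 1 was below and irradiated 2 above the unirradiated pair. Lymphocyte and macrophage markers were also highest in irradiated 2, and their part was not tested. Mirt1 stood at 3.37, 3.89, 6.15 and 4.05 CPM. In the list that overlaps ribosomal RNA, 2 of 5 were tested and both lay above (20.3% of all tested genes did), with a median of 0.36. Gm26917, 1 of these, stood at 1139, 1197, 1886 and 1234 CPM. The HOX list had 0 members and 1 tested gene, Hoxb3os, with a log2 fold change of 1.48 at under 2 CPM in every library.

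Members and the coding genes whose exons they share had nearly uncorrelated differences in irradiated 1. Across 91 such pairs with a tested coding gene, the log2 differences had a Pearson r of -0.0090 and a Spearman rho of -0.05 in irradiated 1, with 38 of the same sign, and 0.18 and 0.25 in irradiated 2, with 63 of the same sign. The 52 head-to-head pairs gave 0.08 and 0.11 with 24 of the same sign in irradiated 1, and 0.23 and 0.26 with 39 in irradiated 2. Some pairs, such as Tug1 and Morc2a, are in both sets, so the sets are not separate observations. Pairs share the libraries and, for overlapping exons, may share reads, so these are descriptions across genes.

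**Figure D5:**
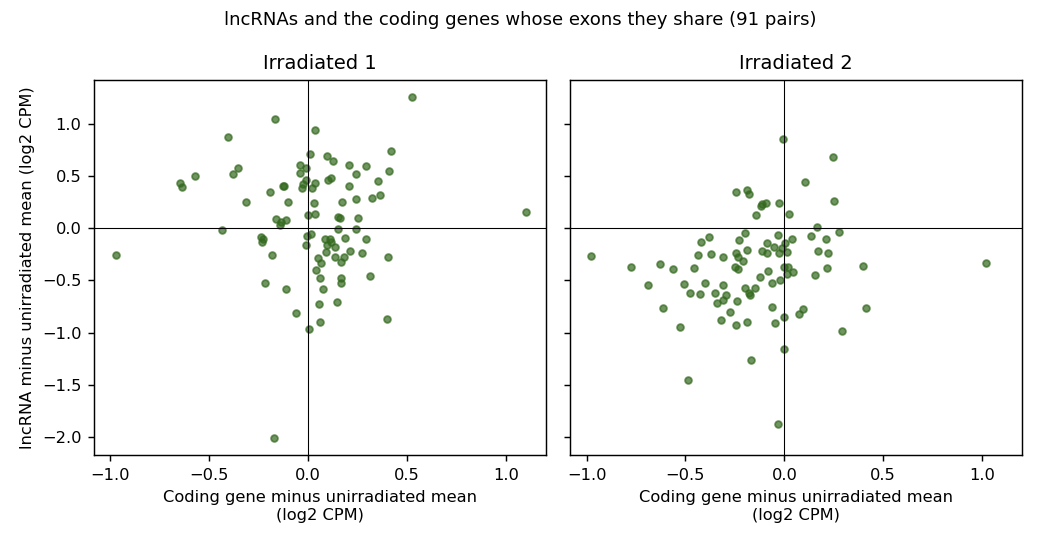
Log2 CPM difference from the unirradiated mean of the member (vertical) against that of the coding gene whose exons it shares (horizontal), for 91 pairs in each irradiated library. The points form no line in irradiated 1, with r of -0.0090, and a loose one in irradiated 2, with r of 0.18.

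One overlapping pair concerns the sorted gene itself. A930024N18Rik shares 21.9% of its exon bases with Dll1, the gene of the reporter, and stood at 12.6, 14.9, 9.79 and 9.33 CPM, below in both irradiated libraries, with a log2 fold change of -0.52. Dll1 stood at 130, 129, 146 and 80.2 CPM, above in irradiated 1 and below in irradiated 2. A930024N18Rik was picked for this overlap after its values were seen. Plet1os, which shares 20.96% of its exon bases with Plet1, stood at 32.3, 38.7, 42.2 and 20.8 CPM, while Plet1 stood at 1135, 1081, 891 and 723. Gm26669, with 92.5% of its exon bases in Zfp36l1, stood at 12.3, 16.6, 18.97 and 11.04 CPM, in the same order of irradiated libraries as Zfp36l1 at 638, 678, 760 and 553; it too was chosen after its values were seen.

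The members that differed most between the irradiated libraries show the spread. Irradiated 1 exceeded irradiated 2 most in Gm12867 (2.60, 4.36, 7.01 and 1.81 CPM), Gm29361 (2.31, 3.48, 4.39 and 1.12), Gm26518 (2.65, 2.24, 2.27 and 0.586), 0610039K10Rik (3.51, 3.42, 6.46 and 2.19) and Gm26688 (4.43, 3.36, 7.52 and 2.61). Irradiated 2 exceeded irradiated 1 most in 9530014B07Rik (2.12, 2.3001, 0.303 and 1.76), BC051226 (3.32, 3.36, 0.858 and 4.27), Meg3, 2010007H06Rik (2.84, 3.54, 0.706 and 2.61) and H19. In the 3 of these other than Meg3 and H19, irradiated 1 was the library that stood apart, with counts of 6 to 17. In total, 35 of the 234 members differed over 2-fold between the irradiated libraries and 2 between the unirradiated ones. Of the 15993 tested genes, 2463 and 522 did. Of the 11326 coding genes under the same rule, 696 and 2 did. These coding genes had higher levels than the members. Under 5 CPM, 27 of 133 members and 314 of 1009 coding genes differed over 2-fold between the irradiated libraries.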

How the data were processed

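Raw read counts for every gene were deposited by the authors, beside positions, biotypes and gene lengths in bases. The submitters' processing notes name STAR 2.5 and HTSeq 0.6.1, the mm10 build, and DESeq2 without a version. How HTSeq treated overlaps, and which annotation release it used, was not given in the sources. Per the labels' protocols, the libraries were poly(A)-selected, randomly primed and non-directional, so strand is not kept. The single tables of 3 libraries were identical to the four-library table.

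Counts were tested in edgeR 4.0.16 (R 4.3.3) with the quasi-likelihood test, two-sided, on 15993 genes kept by filterByExpr (minimum count 10, minimum total 15), scaled by TMM and adjusted by Benjamini-Hochberg at 0.05. The step was run on simulated data that gave both groups the same spread. The groups here differ in spread, so that run cannot show how the step behaves on these data. DESeq2 1.42.0 was an alternative, with other scalings, filters, membership rules, a replicate block and each library left out. Log2 CPM used a prior count of 2. A library's difference is its log2 CPM minus the unirradiated mean. The smallest p an exact permutation test can give here is 0.333.

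The members and all gene lists were chosen with earlier results of these data known. Named genes are the 15 of highest level per length, members on lists, the 8 of smallest p per direction with groups that do not overlap, the 3 just inside and outside the threshold, and the 5 per direction that differ most between irradiated libraries. Genes overlapping some of these are named as well.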

Additional observations from a re-analysis of the deposited data

How the results depend on the processing

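The count of members passing was 0 in both directions with other scaling in edgeR, the stricter filter, and either unirradiated library left out. DESeq2 passed 2 members higher (0.855%) and 4 lower (1.71%), and 437 (2.96%) and 56 (0.380%) of the 14752 genes with an adjusted value. Without a filter on low counts, edgeR passed 3 and 4 of the 234 members, and 1338 and 105 of all genes. How many genes that fit tested is not given here, so the members' counts have no share of all genes beside them. The labels number the libraries 1 and 2 in each group but do not say that these pair them, and the deviations of same-numbered libraries correlated at -0.0992 across 15993 genes. With the replicate number as a block, 2 of all genes passed higher, 0 lower and 0 members, and Snhg20 turned to -0.003208; with 2 pairs this says little.

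Leaving out each library in turn gave 0 to 34 members higher and 0 to 34 lower, and 0 to 2713 and 0 to 2355 of all genes. The members' median log2 fold change ran from -0.30 to 0.02, the members above from 40 to 102 and those below from 89 to 159. Of all tested genes, 38.4% lay above and 41.3% below without irradiated 1, and 39.8% and 44.1% without irradiated 2. With all libraries these shares were 20.3% and 20.0%. The 40 above and 89 below came from fits without an unirradiated library, for which no share of all genes is given. The list medians ran from -0.22 to -0.0386 for hosts of small nucleolar RNAs, -0.26 to 0.17 for nuclear RNAs, -0.0376 to 0.35 for imprinted RNAs, 0.12 to 0.46 for microRNA hosts, -0.22 to 0.21 for the p53 list and 0.38 to 0.90 for the immune list. These single members changed sign, with log2 fold changes from -0.68 to 0.88 for 0610039K10Rik, -0.94 to 1.02 for Gm12867, -0.60 to 0.92 for Gm26688, -1.37 to 0.60 for Gm29361, -1.97 to 0.34 for BC051226, -0.54 to 0.90 for AW112010, -0.31 to 0.49 for Neat1, -0.20 to 0.28 for Malat1, -0.38 to 0.34 for Snhg20, -0.35 to 0.38 for Snhg18, -0.24 to 0.0755 for Snhg12, -0.22 to 0.0885 for Tug1 and -0.0551 to 0.52 for Epb41l4aos. The cause was not tested.

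Other membership rules gave 405 members at 1 CPM (54 above, 113 below, median -0.09), 96 at 5 CPM (11, 26, -0.07), 126 without the antisense biotype (21, 36, -0.06) and 255 by the mean over all libraries (43, 66, -0.06). Of all tested genes, 20.3% lay above and 20.0% below. Depth limits members near the threshold most, with counts down to 6 in irradiated 1.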
